A study of Mus musculus with 29 samples.

Results

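The genes described are the potassium channel genes of the mouse, taken as the protein-coding RefSeq genes of chromosomes 1 to 19 whose symbol begins with Kcn, 1 symbol left out. There were 91 of them among 20558 protein-coding genes, and they were compared by the letter that follows Kcn. Each gene was given the type of H2Aub that covered most of its body with 20 kb on each side, called its leading type over its window. The other 20467 protein-coding genes of the same chromosomes were treated the same way. Members were chosen by symbol and no value of the segmentation entered the rule, although earlier results of these data were known.

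Potassium channels let potassium ions leave or enter a cell along their gradient, and so set the resting potential and end action potentials. Pore-forming subunits fall into families controlled by voltage, by calcium or sodium inside the cell, by ATP, G proteins or membrane stretch, and auxiliary subunits change their gating and traffic. Most are known for their work in neurons, muscle, heart, kidney and glands rather than in the early embryo. Monoubiquitinated histone H2A (H2Aub) is laid down by Polycomb repressive complex 1 and H3K27me3 by Polycomb repressive complex 2, both known for covering genes that are silent until a later cell type uses them.

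The series holds 29 CUT&RUN libraries of mouse oocytes and embryos in 16 groups, 24 for H2Aub and 5 for H3K27me3. CUT&RUN uses an antibody against the mark and a nuclease that binds it, which cuts out the DNA nearby. Maternal knockout of Eed, whose protein Polycomb repressive complex 2 needs, was sampled in germinal vesicle oocytes (Gdf9-Eed (fl/fl), B6/129 mixed) and in 4-cell embryos and morulae of such genotype crossed with WT (B6/129 mixed x PWK), with 2 H2Aub libraries each. Gdf9 is an oocyte growth factor gene, and the labels do not say what it drives. PR-DUB, the deubiquitinase of H2A, was the manipulation in PR-DUB (OE) and PR-DUB (CTR) 4-cell embryos (B6/DBA x PWK), which gave 1 H2Aub and 2 H3K27me3 libraries per group. Libraries labelled WT covered 8 stages for H2Aub, from germinal vesicle oocyte to E6.5 epiblast, and germinal vesicle oocytes for H3K27me3 (1 library). The libraries labelled WT came from B6/DBA mice, alone or crossed with PWK, or from Eed (fl/fl) mice of B6/129 mixed background, alone or crossed with PWK. The second kind, which carries the floxed allele, made up the H2Aub libraries of germinal vesicle oocytes, 4-cell embryos and morulae and some of those of 2-cell embryos. Each library pooled 1 to 300 oocytes or embryos, and 3 carried no number.

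The values analysed were 1 segmentation of the genome into H2Aub types numbered 1 to 5, deposited for the whole series. The types carry no key, so no level of H2Aub is attached to a number. There is no value per library, the depth is unknown, and stages, genotypes and PR-DUB groups could not be compared for these genes. No test was made: counts are given with exact 95% Clopper-Pearson intervals, which cover counting error only, and neighbouring genes are not independent.

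Type 4 was the leading type of 40 of the 91 Kcn genes, more than any other type. That is 44.0% (interval 33.6 to 54.8%), beside 13.7% of the other protein-coding genes, a ratio of 3.21. Type 1, the most common type of the other genes at 36.8%, led only 5 Kcn genes (5.49%, interval 1.81 to 12.4%), a ratio of 0.150. Type 3 led 29 Kcn genes (31.9%) and 35.4% of the other genes, and type 5 led 10 (11.0%) and 9.62% of the others, so both stood close to the background. Type 2 led 7 Kcn genes (7.69%, interval 3.15 to 15.2%) and 4.59% of the other genes, a share inside the interval. Types 3 and 4 together led 69 Kcn genes (75.8%, interval 65.7 to 84.2%), beside 49.0% of the other genes.

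The lead in type 4 went beyond the genes it covered most. Some type 4 lay in 61 of the 91 Kcn windows (67.0%), beside 28.2% of the windows of other genes. Types 3 and 4 met in the same window in 38 Kcn genes (41.8%) and 19.5% of the others, and types 4 and 5 in 12 Kcn genes (13.2%) and 6.20% of the others. Types 1 and 4 met in 17 Kcn genes (18.7%) and 8.15% of the others. All of these meetings need some type 4 in the window, which Kcn windows had more often. Kcn bodies were also longer, with a median of 32.9 kb beside 17.5 kb in other genes, and a longer window can cross more types. Windows lying wholly in 1 type numbered 29 (31.9%), beside 34.4% of other genes. Of the 91, 12 were wholly type 4 (13.2%), beside 4.25% of other genes, and 2 wholly type 1 (2.20%), beside 12.9%. The 11 wholly in type 3 (12.1%) and the 4 in type 5 (4.40%) stood close to the 11.3% and 5.41% of other genes.

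By length of sequence the 5 types were closer to each other. Type 4 took 24.1% of the summed Kcn windows and 14.0% of those of other genes. Type 1 took 18.6% in Kcn genes and 34.6% in others, and type 3 took 19.4% in Kcn genes and 30.4% in others. Both type 2 (18.1% in Kcn genes, 9.51% in others) and type 5 (19.8% in Kcn genes, 11.5% in others) took larger parts of the Kcn windows. A few very long Kcn genes weigh heavily in these sums. With each gene weighted equally, type 4 took 38.3% of a Kcn window on average and 13.7% of another gene's, and type 1 took 10.3% of a Kcn window and 35.2% of another gene's. So weighted, types 2 and 5 took only 7.99% and 10.7% of a Kcn window, beside 5.65% and 9.75% in other genes.

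**Figure D1:**
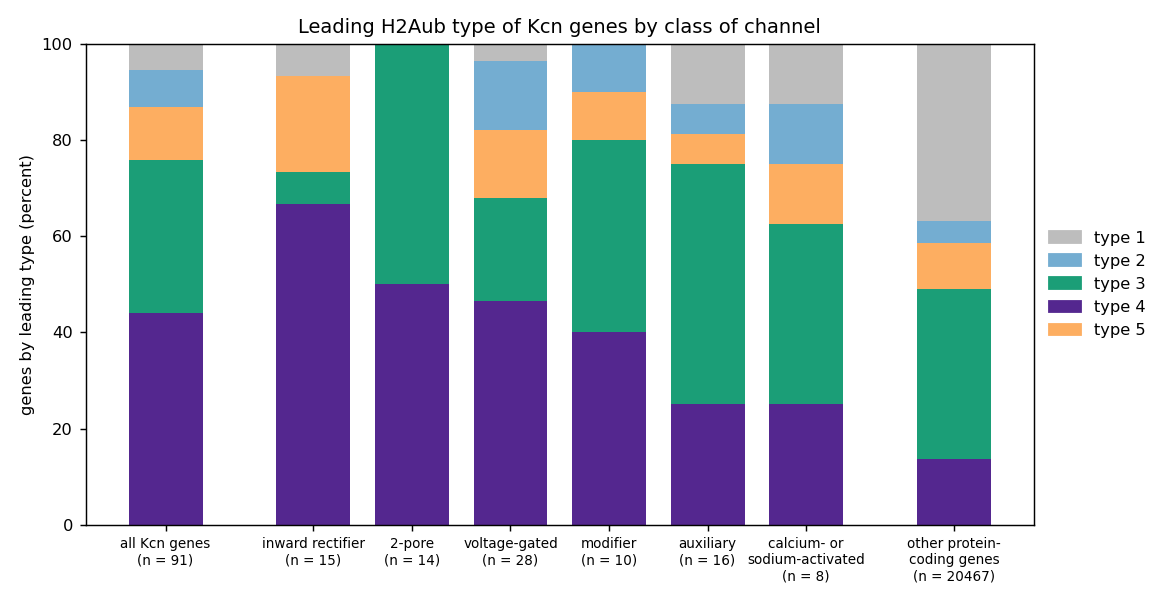
Stacked bars show the percent of genes by leading H2Aub type for all 91 Kcn genes, for the 6 classes of channel and for the 20467 other protein-coding genes. Type 4, at the bottom of each bar, takes 44.0% of all Kcn genes, 66.7% of inward rectifier genes and 13.7% of the other genes.

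Inward rectifier genes, letter j, had the highest share in type 4 of the 6 classes, 10 of 15 (66.7%, interval 38.4 to 88.2%), although the intervals of the classes overlap. These channels pass potassium more easily into the cell than out of it. The 4 windows wholly in type 4 were those of Kcnj1, the potassium secretion channel of the kidney, Kcnj12, a strong rectifier of muscle, and Kcnj5 and Kcnj9, which are gated by G proteins. Kcnj8 and Kcnj11 form the pore of ATP-sensitive channels, and their windows were 89.0% and 59.2% type 4. Kcnj15 was 69.5% type 4, the G protein gated Kcnj6 61.5% and the glial channel gene Kcnj10 60.1%. Kcnj4 was the most evenly split, with 48.4% type 4 and 48.1% type 3.

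The other 5 inward rectifier genes lay elsewhere. Kcnj3, the G protein gated partner of Kcnj5 in the atrium of the heart, lay wholly in a type 5 segment of 750 kb with no other protein-coding gene inside it. Its known partners Kcnj5, Kcnj6 and Kcnj9 all led with type 4. Kcnj16 was 85.0% type 5 and Kcnj2, the classical inward rectifier of heart and skeletal muscle, 70.4% type 5. Kcnj13, a channel of retinal pigment epithelium, lay wholly in type 1, in a 155 kb segment that also held Gigyf2, a translation regulator gene. Kcnj14 was 79.8% type 3 and 20.2% type 4.

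All 14 genes of the 2-pore channels, letter k, led with type 3 or type 4, 7 in each. No window in this class was led by type 1, 2 or 5 (0 of 14, interval 0 to 23.2%), and those 3 types together led 51.0% of other genes. These channels carry the leak current that sets the resting potential. The stretch-sensitive Kcnk2 had 98.8% of its window in a type 4 segment of 405 kb on chromosome 1 with no other protein-coding gene wholly inside, and its relative Kcnk10 was 84.1% type 4. The third gene of that group, Kcnk4, lay wholly in type 3, in a 100 kb segment with 15 protein-coding genes, among them Bad, a cell death regulator, and Vegfb, a growth factor gene.

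The acid-sensitive Kcnk3 was 78.2% type 4 and its close relative Kcnk9 51.9%, with 33.0% of the Kcnk9 window in type 2. Kcnk15, a further relative, lay wholly in type 4. Kcnk12 and Kcnk13 form another pair of close relatives and differed in type, since Kcnk12 was 75.9% type 4 and Kcnk13 lay wholly in type 3 in a 220 kb segment of its own. Kcnk16, of the pancreas, was 59.8% type 4. Kcnk1 and Kcnk7 lay wholly in type 3, as did Kcnk5, a channel of kidney. Kcnk18, of sensory neurons, was 99.4% type 3 and Kcnk6 69.2%.

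Voltage-gated genes, letters a, b, c, d, h and q without the auxiliary Kcnab genes, led with type 4 in 13 of 28 cases (46.4%, interval 27.5 to 66.1%). Another 6 led with type 3, 4 with type 2, 4 with type 5 and 1 with type 1. In letter a, the Shaker-related channels, Kcna2, Kcna6 and Kcna10 lay wholly in type 4, Kcna7 was 58.1% type 3 and 41.9% type 1, and Kcna4 80.3% type 2. In letter c, the channels of fast-firing neurons, Kcnc1 (42.5 kb) and Kcnc4 (22.0 kb) lay wholly in type 4. Kcnc2, of 196.4 kb, differed from them: its window was split into 40.2% type 5, 38.6% type 1, 14.8% type 2 and 6.35% type 4.

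In letter q, Kcnq3 and Kcnq5 are known for the M current of neurons. Kcnq3, 300.3 kb long, crossed 8 segments and was 49.0% type 4, 39.7% type 2 and 10.3% type 5. Kcnq5, 564.3 kb long, crossed 15 segments, the most of all members, and was 67.0% type 2.

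In letter h, the ether-a-go-go family, types were mixed, with 2 genes each in types 3 and 4, 3 in type 5 and 1 in type 2. Kcnh2, whose channel repolarises the heart, was 55.5% type 3 and 44.5% type 4. Kcnh3 lay wholly in type 3, Kcnh4 was 67.2% type 4 and Kcnh6 44.4% type 4. Kcnh7 (490.9 kb) and Kcnh8 (376.5 kb) lay wholly in type 5, in segments of 725 and 1175 kb. Kcnh5 was 46.9% type 5 and 31.2% type 2, and Kcnh1 was 74.8% type 2.

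Letters b and d each held a gene in which type 1 took a large part of the window. Kcnb2, a delayed rectifier gene of 436.8 kb, was 53.5% type 2 and 46.5% type 1. Kcnd3 and Kcnd2 carry fast transient outward currents. Kcnd3 was 71.4% type 3 and 24.8% type 4, and Kcnd2 was 46.9% type 1 and 43.2% type 5.

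Modifier genes, letters f, g, s and v, encode subunits that make no channel alone and join Kcnb subunits. Type 4 led 4 of 10 (40.0%, interval 12.2 to 73.8%), namely Kcng1 (75.8%), Kcns1 (65.5%), Kcnf1 (62.3%) and Kcng2 (58.6%). Kcng4 lay wholly in type 3, Kcng3 was 87.8% type 3, and Kcnv2, a gene of photoreceptors, 54.4%. Kcns3 was 55.6% type 3. Kcns2, 6.05 kb long, was 49.2% type 2 over its window, while its body lay wholly in a 10 kb type 4 segment. Kcnv1 lay wholly in type 5, in a 1315 kb segment with no other protein-coding gene inside.

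Type 4 led 4 of the 16 auxiliary genes (25.0%, interval 7.27 to 52.4%) and type 3 led 8. Kcne genes encode single-span partners of the pores, of which Kcne3 was 92.8% type 4 and Kcne4 65.1%, while Kcne1 (81.3%) and Kcne2 (wholly) led with type 3. Of the cytoplasmic Kcnab subunits, Kcnab2 was 86.8% type 4, Kcnab3 wholly type 3 and Kcnab1 54.5% type 5. Kcnip genes encode calcium-binding partners of Kcnd channels. Kcnip3 was 82.5% type 4, Kcnip2 64.6% type 3 and Kcnip1 51.6% type 3. Kcnip4, at 1136 kb the longest member, was 91.1% type 1, and Kcnrg, whose protein holds back channel assembly, lay wholly in type 1 beside Trim13.

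Calcium- or sodium-activated channel genes led with type 4 in 2 of 8 cases (25.0%, interval 3.19 to 65.1%). They were Kcnn3 (98.7%), a small-conductance channel gene in a 190 kb type 4 segment of its own, and Kcnt1 (64.8%), activated by sodium. Kcnt2, its relative, was 96.3% type 5. Kcnn1 lay wholly in type 3 and Kcnn4 was 72.9% type 3, while Kcnn2, of 417.1 kb, was 56.0% type 1 over 11 segments. Kcnu1, a channel of sperm placed in this class by its symbol and not for activation by calcium or sodium, was 68.0% type 3.

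Letter m, the large-conductance calcium-activated channel with its beta subunits, had no gene led by type 4 (0 of 5, interval 0 to 52.2%). Kcnma1, the pore gene, is 712.8 kb long and was 70.1% type 2 over 11 segments, with 21.3% type 3 and 6.64% type 4. Kcnmb2 was 93.2% type 2. Kcnmb1 lay wholly in type 3, and Kcnmb4 (85.6%) and Kcnmb3 (51.5%) led with type 3.

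**Figure D2:**
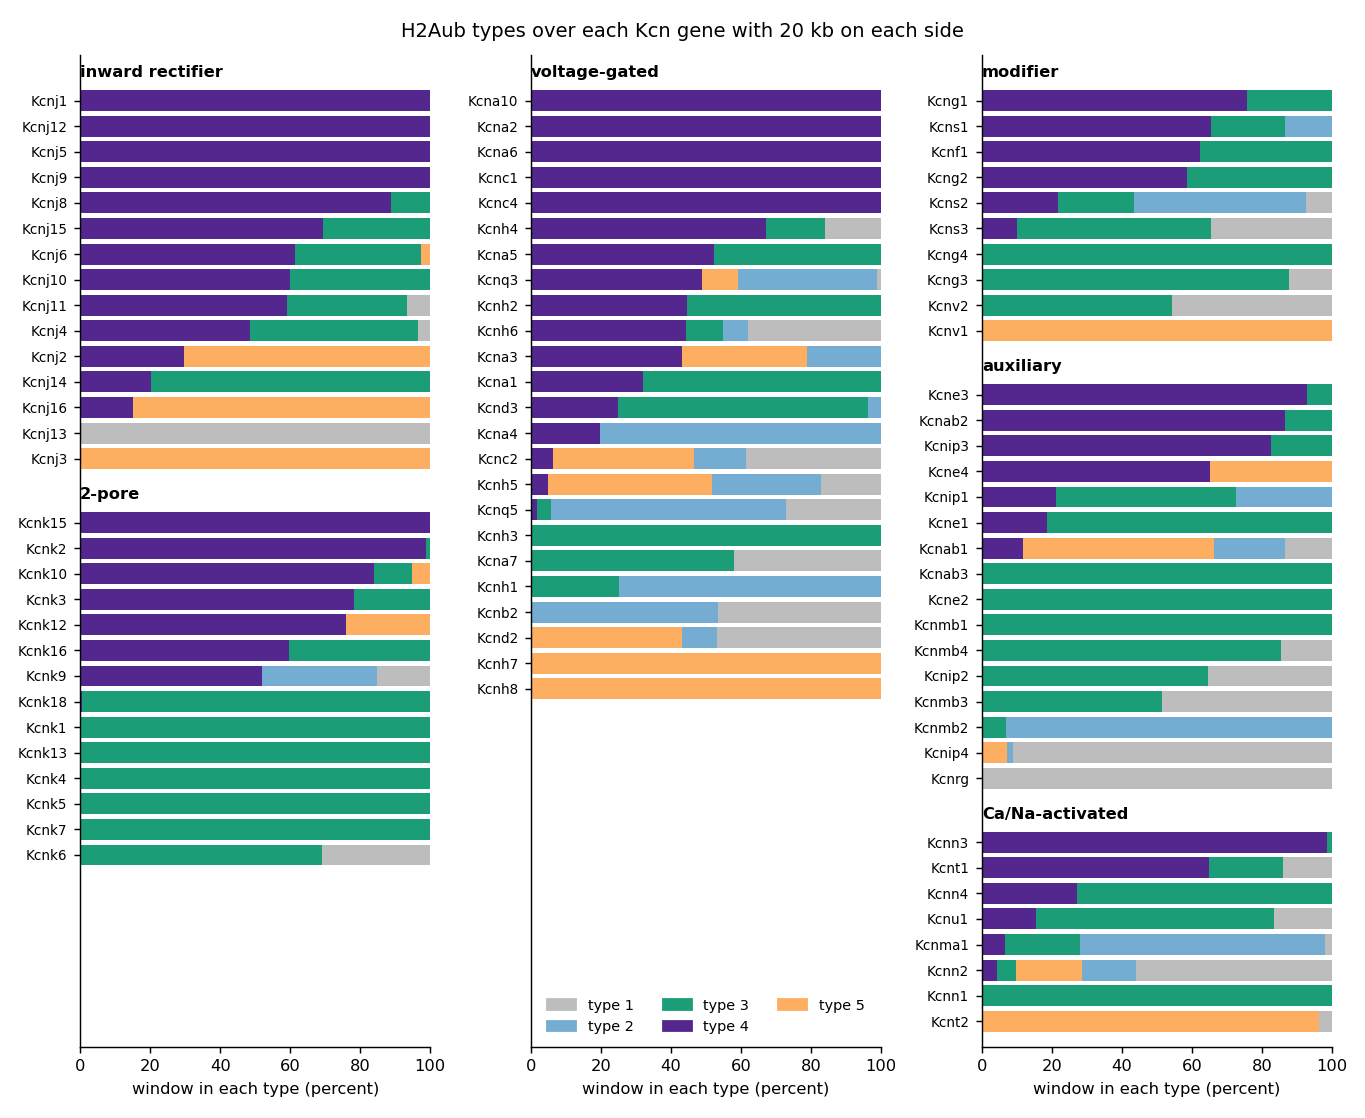
Each bar is 1 of 87 Kcn genes, divided by the percent of its window (gene body with 20 kb on each side) in each H2Aub type and grouped by class of channel. The 14 genes of the 2-pore class are led by types 3 and 4, and Kcnh7, Kcnh8, Kcnj3 and Kcnv1 lie wholly in type 5.

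Leading types were counted separately for long and short Kcn genes. Of the 17 Kcn genes of 200 kb or more, 5 led with type 2, 5 with type 5, 3 with type 1, 2 with type 3 and 2 with type 4. Among the 74 shorter Kcn genes type 4 led 38 (51.4%) and type 3 led 27 (36.5%), while types 1 and 2 led 2 each and type 5 led 5. Among other genes under 200 kb, type 4 led 13.6%, type 3 36.2%, type 1 37.0%, type 2 3.91% and type 5 9.27%. The long Kcn genes had 11.8% in type 4, beside 15.5% of the 928 other genes of that length, 29.4% in type 2, beside 18.97% of those others, and 29.4% in type 5, beside 16.9% of them. In type 1 they had 17.6%, beside 31.4% of the others, and in type 3 11.8%, beside 17.2%. In the other genes too, types 2 and 5 led larger shares of long than of short genes, and type 3 a smaller one.

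Kcn genes of 200 kb or more made up 18.7% of the members, and such genes were 4.53% of the rest. Kcn genes led by type 1 had a median body of 417.1 kb, beside 21.9 kb in other genes of that type. For type 2 the medians were 321.0 kb in Kcn genes and 37.4 kb in others, and for type 5 they were 238.3 kb in Kcn genes and 6.46 kb in others. Kcn genes led by type 4 had a median of 31.0 kb, beside 18.7 kb in others, and those led by type 3 one of 18.3 kb, beside 14.9 kb in others.

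**Figure D3:**
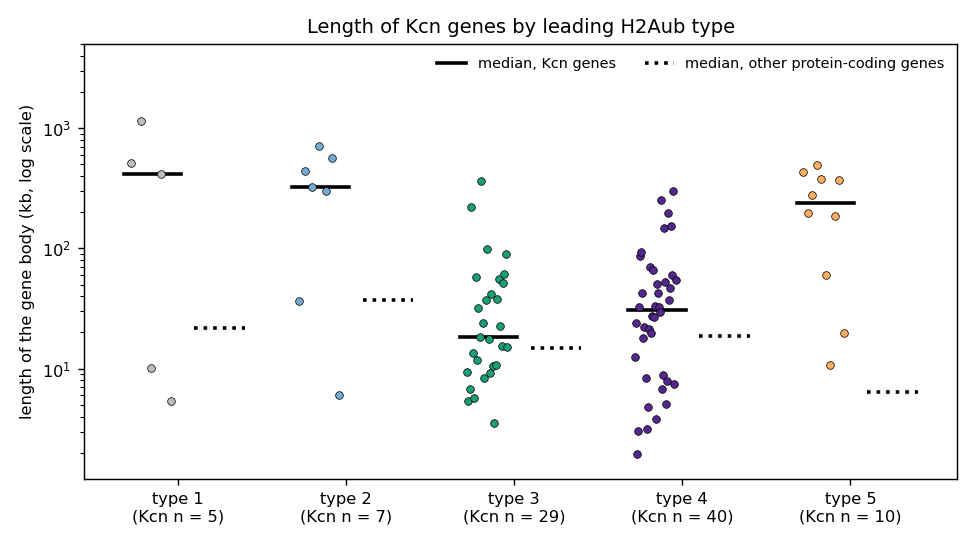
Points show the gene body length in kb on a log scale of each Kcn gene, by its leading H2Aub type, with solid lines at the Kcn medians and dotted lines at the medians of other protein-coding genes. The Kcn medians are 417.1, 321.0 and 238.3 kb in types 1, 2 and 5, against 18.3 and 31.0 kb in types 3 and 4.

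At the start of the gene, type 4 held about the same genes and a few more. RefSeq promoters gave a start site for 68 Kcn genes and 16389 other genes, and the 5 kb bin that holds the start was read. For some members, such as Kcnip4 and Kcnh2, the start so given lies inside the gene body. It was type 4 in 35 Kcn genes (51.5%, interval 39.0 to 63.8%) and in 14.7% of other genes, and over the window type 4 led 30 of the same 68 (44.1%). It was type 3 in 22 Kcn genes (32.4%) and in 39.9% of other genes, and type 5 in 7 (10.3%) and in 9.46% of others. Type 1 held 3 Kcn starts (4.41%, interval 0.919 to 12.4%) and 32.3% of other starts, and type 2 held 1 (1.47%) and 3.59% of others.

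The type 4 share of Kcn genes peaked at the start and was lower on both sides. It was 32.4% at 25 kb before the start, 36.8% at 25 kb into the gene, 17.6% at 100 kb into the gene and 13.2% at 200 kb before the start. In other genes the type 4 share was 13.8%, 13.0%, 15.0% and 16.9% at those distances. Type 1 was lowest at the start in Kcn genes, with 4.41% there, 23.5% at 100 kb before it, 17.6% at 100 kb into the gene, 38.2% at 200 kb before it and 26.5% at 200 kb into the gene. In other genes type 1 was 32.3%, 34.5%, 35.1%, 33.3% and 33.1% at those points. Distances were counted along the strand, and far from the start the bins lie beyond the end of the shorter genes.

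**Figure D4:**
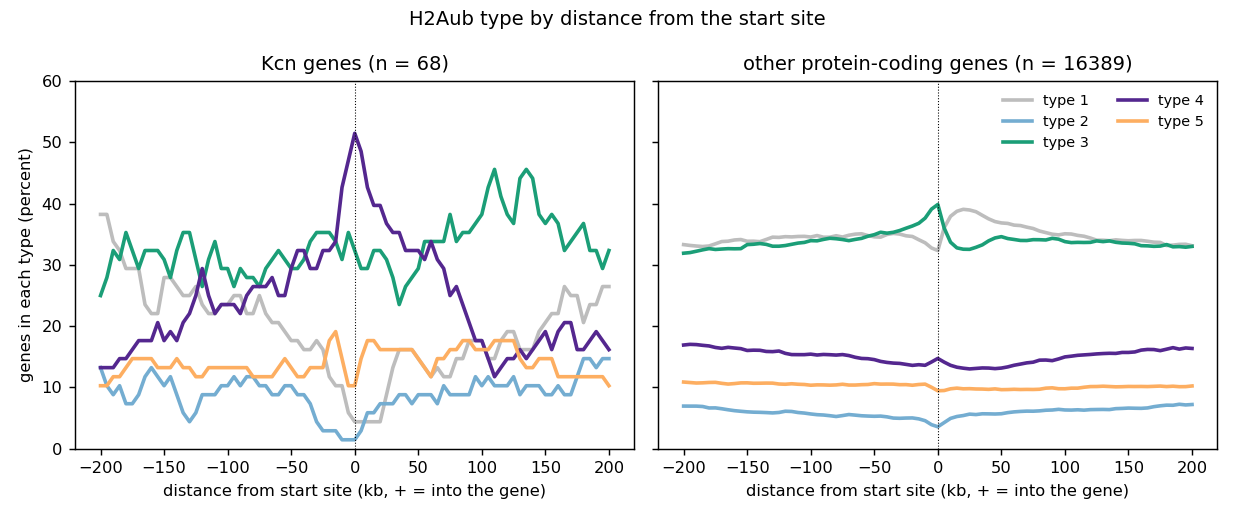
Lines show the percent of genes in each H2Aub type against the distance in kb from the start site, positive into the gene, for 68 Kcn genes on the left and 16389 other protein-coding genes on the right. The type 4 line of Kcn genes stands at 51.5% at the start and 13.2% at 200 kb before it, and that of other genes stays between 13.0% and 16.9% at the distances named.

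Of 30 Kcn genes led by type 4 with a known start, 29 also started in type 4, the exception being Kcna5, whose start lay within 1 bin of a border, in type 3. Another 6 Kcn genes started in type 4 and had another leading type. For 4 of them the start lay in a 15 kb type 4 segment: Kcna4, a fast-inactivating channel gene, inside type 2, and Kcnc2, Kcnh5 and Kcnj2 inside type 5. Kcns3 started in a 10 kb type 4 segment inside type 3, and Kcnd3 in one of 65 kb inside type 3. These 6 were 17.1% of the Kcn starts in type 4, beside 21.5% among other genes.

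Among the 9 Kcn genes led by type 5 with a known start, 3 started in type 4 (33.3%, interval 7.49 to 70.1%), and the 8.13% of the 1587 other genes led by type 5 lies inside that interval. Over all leading types the start lay in another type than the leading one in 11 of 68 Kcn genes (16.2%), close to the 16.6% of other genes. Of the 5 led by type 2 with a known start, 4 started in another type, Kcnh1, Kcnma1 and Kcnmb2 in type 3 and Kcna4 in type 4, and 47.6% of 717 other such genes did so. Kcnma1 began in a 70 kb type 3 segment, from which its body ran through 360 and 375 kb segments of type 2. Kcnd2, led by type 1, started in a 75 kb type 5 segment.

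The promoters of Kcn genes, taken as 250 bases before to 50 bases after the start, held fewer CG dinucleotides than those of other genes, with a median of 9.5 CG, beside 14.0 CG in other genes. A ratio of observed to expected CG of at least 0.6 was reached by 30.9% of Kcn promoters and by 49.9% of others. For starts in type 4 the medians were 11.0 CG in both sets, with 37.1% of Kcn promoters and 40.9% of others at or above the ratio. For starts in type 3 the median was 9 CG in 22 Kcn promoters and 17.0 in others. For starts in type 5 it was 12 in 7 Kcn promoters and 2 in others.

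Type 4 at the start was found with very different promoter sequences. At 1 place on chromosome 3 lie 3 Shaker-related genes, Kcna3, a channel of lymphocytes, Kcna2, a channel of axons, and Kcna10, all starting in type 4. The 300 bases from RefSeq (GRCm38.p6, the same build as mm10) are shown for them because they range over 37, 31 and 0 CG under the same type, with each CG in capitals and all 3 on the plus strand. Their positions are chr3:107035912-107036211, chr3:107101317-107101616 and chr3:107182893-107183192. The start read for Kcna2, 107101567, lay inside its body, which begins at 107090883.
Kcna3: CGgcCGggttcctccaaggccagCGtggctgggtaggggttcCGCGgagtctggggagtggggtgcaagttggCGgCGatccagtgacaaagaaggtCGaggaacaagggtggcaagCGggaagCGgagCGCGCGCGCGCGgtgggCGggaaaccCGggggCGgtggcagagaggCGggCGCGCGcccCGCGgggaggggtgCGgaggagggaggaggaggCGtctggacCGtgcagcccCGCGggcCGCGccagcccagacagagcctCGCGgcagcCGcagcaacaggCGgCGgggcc
Kcna2: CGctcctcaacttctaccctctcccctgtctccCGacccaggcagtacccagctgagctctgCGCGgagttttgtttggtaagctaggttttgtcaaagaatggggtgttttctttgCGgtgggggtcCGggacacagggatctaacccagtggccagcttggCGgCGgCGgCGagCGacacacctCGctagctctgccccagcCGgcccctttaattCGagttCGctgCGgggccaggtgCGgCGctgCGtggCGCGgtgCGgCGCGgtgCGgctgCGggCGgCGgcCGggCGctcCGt
Kcna10: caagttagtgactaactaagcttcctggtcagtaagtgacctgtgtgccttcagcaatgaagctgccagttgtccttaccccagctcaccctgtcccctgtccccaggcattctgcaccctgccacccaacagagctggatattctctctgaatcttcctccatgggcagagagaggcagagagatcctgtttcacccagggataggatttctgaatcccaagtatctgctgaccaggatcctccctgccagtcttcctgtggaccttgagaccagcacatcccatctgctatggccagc

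Promoters with many CG also stood outside type 4 or in a short piece of it. Kcng3, a modifier subunit gene, had 49 CG at its start in type 3 (chr17:83631846-83632145, minus strand), the most of any Kcn promoter. Kcnh8 had 21 CG at its start in type 5 (chr17:52602459-52602758, plus strand), and Kcnj2 had 18 CG at its start in a 15 kb type 4 segment within type 5 (chr11:111065914-111066213, plus strand). These 3 RefSeq promoters of GRCm38.p6 are shown, CG in capitals, because all hold more CG than the median Kcn promoter and their starts lie in other surroundings than those of the Kcna genes above. The ratio of observed to expected CG was 0.991 for Kcng3, 0.643 for Kcnh8 and 0.540 for Kcnj2, the last being under 0.6.
Kcng3: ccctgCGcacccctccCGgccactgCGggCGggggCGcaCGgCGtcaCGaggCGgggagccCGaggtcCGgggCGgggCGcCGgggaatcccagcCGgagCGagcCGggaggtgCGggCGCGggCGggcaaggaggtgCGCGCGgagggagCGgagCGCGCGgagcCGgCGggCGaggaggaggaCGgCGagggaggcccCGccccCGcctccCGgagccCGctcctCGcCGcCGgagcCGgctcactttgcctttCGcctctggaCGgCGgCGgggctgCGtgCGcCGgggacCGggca
Kcnh8: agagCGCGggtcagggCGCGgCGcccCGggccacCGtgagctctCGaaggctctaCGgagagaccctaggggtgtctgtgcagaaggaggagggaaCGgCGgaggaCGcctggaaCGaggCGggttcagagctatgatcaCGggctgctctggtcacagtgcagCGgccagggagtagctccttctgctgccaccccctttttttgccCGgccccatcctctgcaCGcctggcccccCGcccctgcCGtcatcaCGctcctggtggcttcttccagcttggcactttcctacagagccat
Kcnj2: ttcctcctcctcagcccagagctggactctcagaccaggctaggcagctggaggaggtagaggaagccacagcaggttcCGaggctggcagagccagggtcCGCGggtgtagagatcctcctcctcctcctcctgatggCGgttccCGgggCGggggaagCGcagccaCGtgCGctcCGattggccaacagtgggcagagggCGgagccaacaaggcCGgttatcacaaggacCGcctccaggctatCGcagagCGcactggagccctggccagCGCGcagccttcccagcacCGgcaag

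Several Kcn genes lie side by side, and most such places were of 1 type. With bodies within 100 kb of each other, 17 Kcn genes fell into 8 places, and in 6 of these all genes had the same leading type. No such share was taken for neighbouring other genes. Neighbours whose windows overlap or share a segment agree in part by construction. Counted as places, type 4 led 35 of 82 (42.7%). Kcnj5 and Kcnj1 shared the longest type 4 segment of any member, 540 kb of chromosome 9 (32255001 to 32795000), with Fli1 and Ets1, a pair of transcription factor genes of blood and vessels. Kcnj9 lay in, and Kcnj10 started in, a 145 kb type 4 segment with the sodium pump gene Atp1a4.

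At Kcna3, Kcna2 and Kcna10 the types alternated over short distances. Kcna3, 1.97 kb long, lay in a 15 kb type 4 segment (chromosome 3, 107025001 to 107040000), next to 15 kb of type 5, and Kcna2 and Kcna10 lay in the 220 kb type 4 segment that follows (107055001 to 107275000). The Kcna3 window was therefore 43.2% type 4, 35.7% type 5 and 21.1% type 2. On chromosome 6 the related Kcna5, an atrial channel gene, Kcna1, an axonal one, and Kcna6 follow each other. Kcna1 was 68.0% type 3, between a 70 kb type 4 segment that reaches Kcna5 (window 52.2% type 4) and a 145 kb type 4 segment that holds Kcna6.

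The windows of Kcnj16 and Kcnj2 were type 5 broken by 15 kb pieces of type 4. A piece of this kind covered the start and most of the body of Kcnj2 (82.9%), whose window was type 5 through its flanks. Kcnk5 and Kcnk16 met at a border, with Kcnk5 in a 150 kb type 3 segment and Kcnk16 in the 30 kb type 4 segment that follows it. Kcne2 and Kcne1 had the same 95 kb type 3 segment as their leading one. Kcnmb1 lies inside Kcnip1, and a 185 kb type 3 segment was the leading one of both.

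The pore genes of the ATP-sensitive channels lay with the genes of their receptor subunits, which are their neighbours on the chromosome. Kcnj11 lay with Abcc8, which encodes the sulfonylurea receptor of the same ATP-sensitive channel, in a 370 kb type 4 segment of chromosome 7 (46095001 to 46465000) that also held the muscle factor gene Myod1, the ear genes Ush1c and Otog, and Kcnc1. Kcnj8 lay with Abcc9, its own receptor subunit gene, in a 160 kb type 4 segment of chromosome 6 (142550001 to 142710000). Abcc8 was 90.9% and Abcc9 91.8% type 4. Of 9 partner genes without a Kcn symbol, 4 led with type 4 (44.4%, interval 13.7 to 78.8%), beside 13.7% of other protein-coding genes. They were Abcc8 and Abcc9, and Lrrc38 and Lrrc52, which encode auxiliary subunits of large-conductance channels. Abcc8 and Abcc9 share their segments with Kcnj11 and Kcnj8 and are not independent of them.

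**Figure D5:**
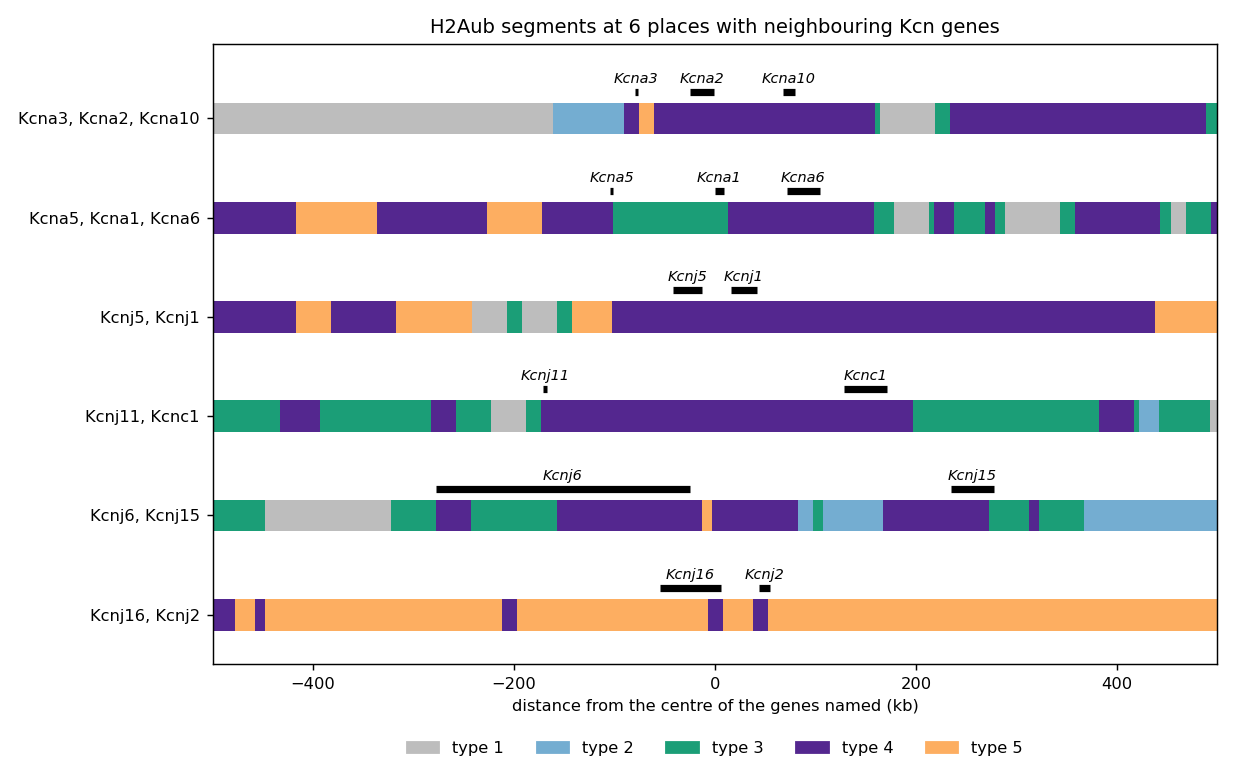
Coloured bars show the H2Aub segments at 6 places with neighbouring Kcn genes, against the distance in kb from the centre of the genes named, with gene bodies as black lines. Kcnj5 and Kcnj1 lie in 1 type 4 segment of 540 kb, Kcna3 lies in a 15 kb type 4 segment beside type 5, and Kcnj2 starts in a 15 kb type 4 segment within type 5.

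The 40 type 4 Kcn genes lay in 36 leading segments with a median of 112.5 kb, beside 95.0 kb for the 1519 leading type 4 segments of other genes. Type 3 lay on both sides of 24 of the 36 (66.7%), beside 49.2% for other genes. Type 5 lay on both sides of 2 (5.56%), beside 12.3% for other genes. No intervals were taken for these shares of 36 segments, and the differences were not tested. The whole gene body was type 4 in 29 of the 40 (72.5%, interval 56.1 to 85.4%), beside 65.8% of other type 4 genes. The 10 type 5 Kcn genes lay in segments with a median of 392.5 kb, beside 140.0 kb for other genes. Kcn segments were the longer in the remaining types too. The medians were 175.0 and 90.0 kb in type 1, 170.0 and 80.0 kb in type 2, and 115.0 and 70.0 kb in type 3. Genes were not matched for length, and Kcn genes led by type 5 had a median body of 238.3 kb, beside 6.46 kb in others.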

How the data were processed

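H2Aub and H3K27me3 were profiled by CUT&RUN. The submitters' processing notes name mm10, Bowtie2 2.3.4.3, Trim Galore 0.4.5, deepTools 3.0.2 and Picard 2.8.0, with no roles. The table the authors deposited holds segments with a type label, a category and not a score or level. Its name credits ChromHMM, which divides a genome into states. Not given in the sources used here are its version, its input libraries, its bin size and what each type means.

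Segment ends were multiples of 5 kb, giving 492539 bins. In 261 bins (0.0530%) 2 segments overlapped and the shorter was used. Gene positions came from RefSeq (GRCm38.p6). The 107 protein-coding genes on separate scaffolds, and 1 Kcn gene, are not reported here, and some members enter the counts only. For genes with several RefSeq promoters the outermost was used. It was not always at the end of the gene body. The start read for Kcnip4, on the minus strand, was 49285659 in type 1, while its body runs to 49525122, in a type 5 segment. The starts read for several others, among them Kcna2, Kcnh2, Kcnj1, Kcnj3, Kcnj4, Kcnj12 and Kcnmb3, also lay inside the body. Observed to expected CG is the CG count times the length over the product of the C and G counts.

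Tables were made with Python 3.11.15, numpy 2.4.6, pandas 2.3.3 and scipy 1.17.1, figures with matplotlib 3.10.9, and the assignment of types was tested on simulated data. Members, lists and alternatives were chosen with earlier results of these data known. The rule for naming allowed every member. The promoters shown, the places mapped and the threshold of 200 kb were chosen after values were seen. Kcnab genes were put with the auxiliary genes. Alternatives were other flanks, the start bin, windows at least 90% of 1 type, the longer segment in overlaps, neighbours within 100 kb as 1 place, and equal weight per member.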

Additional observations from a re-analysis of the deposited data

How the results depend on the processing

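The share of Kcn genes led by type 4, 44.0%, was 47.3% by the gene body alone, 46.2% with 5 kb and 37.4% with 50 kb on each side, 51.5% by the start bin, 41.7% in windows at least 90% of 1 type and 42.7% with neighbours as 1 place. With the longer segment in overlaps it did not move. In other genes the type 4 share was 13.9% by the body alone, 13.6% with 50 kb on each side and 14.7% by the start bin. In their windows at least 90% of 1 type it was 12.85%. By the body alone 4 members had another leading type, among them Kcnj2, Kcns2 and Kcns3, and with 50 kb on each side 16 did. Over all the shares and alternatives, 59 values stayed inside the exact 95% interval of a share of that size and 8 moved outside it. The type 1 share of Kcn genes was 13.2% with 50 kb on each side, beside 35.7% of other genes. The type 2 share was 1.47% by the start bin, beside 3.59% of other genes. In windows at least 90% of 1 type it was 2.78%, beside 1.68% of other genes. With each member weighted equally, the window shares were 10.3%, 7.99%, 32.7%, 38.3% and 10.7% for types 1 to 5, since long genes then count less. No paired analysis was possible because the table holds no value per library and no result comes from a test. Start sites were known for 68 of 91 members, and the depth is unknown.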

Other observations

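Other genes of membrane excitability were taken by symbol and given leading types in the same way. Of 25 calcium channel genes (symbol Cacn), 12 led with type 4 (48.0%, interval 27.8 to 68.7%), among them Cacna1c (94.2%), the L-type pore gene of the heart, Cacna1a (90.7%), a pore gene of synaptic terminals, and Cacna1s and Cacna1g, both wholly type 4. None of the 25 led with type 5. The list was taken by symbol, and its Cacng genes are not all subunits of calcium channels. Among its type 4 genes, Cacng6, Cacng7 and Cacng8 lie together on chromosome 7, and Cacna1c and Cacna2d4 on chromosome 6. Such neighbours are not independent. Of all protein-coding genes other than the Kcn members, type 4 led 13.7% and type 5 9.62%. At the latter share only a few of 25 would be led by type 5. Of 14 sodium channel genes, 5 led with type 4, and 5 with type 5. The type 5 genes, Scn1a, Scn2a, Scn3a, Scn7a and Scn9a, lie together on chromosome 2 and are not independent. Of the pacemaker channel genes, Hcn3 (56.1%) and Hcn4 (89.8%) led with type 4 and Hcn2 with type 3.

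Of 44 genes taken by the symbols of glutamate and GABA receptors, 16 led with type 5 (36.4%) and 12 with type 4 (27.3%, interval 15.0 to 42.8%). Those types led 9.62% and 13.7% of all protein-coding genes other than the Kcn members. Of the 16 led by type 5, 10 encode GABA receptor subunits, such as Gabra6 and Gabrb2 on chromosome 11, both wholly type 5. Gabbr2, a GABA B receptor gene of 329.4 kb, lay wholly in type 4. The list includes Grid2ip, which encodes a protein that binds a glutamate receptor and is not a receptor itself. Each of these lists was read without a test. The share of Kcn genes in type 4, 44.0%, lies inside the interval of the calcium channel list. It also lies inside those of the sodium channel (12.8 to 64.9%), pacemaker channel (6.76 to 93.2%) and partner (13.7 to 78.8%) lists. It lies just above the interval of the receptor list.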
